A study of Mus musculus with 9 samples.

Results

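Chemokine receptor genes were followed across naive, Th1 and Th17 cells of the mouse. They were chosen by name, with earlier results of these data known. The 9 genes were Ccr2, Ccr4, Ccr6, Ccr7, Ccr8, Ccr9, Cxcr3, Cxcr5 and Cxcr6, read by 11 probes of the 39429 on the array. All 9 passed the filter on dim probes and stand among the 19072 genes tested. CD4+ T cells were taken ex vivo from the spleens and lymph nodes of mice of the BALB/c background, and RNA of each sorted population was hybridised to 3 one-colour arrays. Naive cells were CD3+CD4+ and CD45RB high, CD45RB being an isoform of CD45 that T cells lose after contact with antigen. Th1 cells were CD45RB low with interferon gamma and without IL-17A captured on their surface, and Th17 cells were CD45RB low with IL-17A and without interferon gamma. Before sorting, all cells, the naive ones included, received PMA (10 ng/ml), a phorbol ester, and ionomycin (500 ng/ml), a calcium ionophore, for 3 h, so no unstimulated cells were compared. The Th1 and Th17 gates take producers of 1 cytokine among cells grown in the animal, of mixed antigen history, and the naive gate holds CD45RB high cells whatever they secrete. Animals and sorts behind the replicates are not named, so the p-values rest on the spread among the 3 arrays of a group, which may be technical.

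Chemokine receptors are 7-pass membrane proteins that couple to inhibitory G proteins and steer cells along gradients of small secreted proteins, the chemokines. Naive T cells carry CCR7, which holds them in circulation through lymph nodes, and CXCR5 leads helper cells into B cell follicles. Effector cells take up receptors for inflamed or barrier tissue. CXCR3 is the classical receptor of Th1 cells, CCR6 that of Th17 cells, CCR4 and CCR8 are known from Th2, regulatory and skin-homing cells, CCR9 from cells that enter the small intestine, and CCR2 and CXCR6 from memory and tissue-resident cells.

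The region around the start site is shown for 4 of the receptors that rose in both Th1 and Th17 cells. The letters before each gene can thus be read beside its values. The window of Ccr2, which rose more than Ccr4 in both, is not shown. Each window runs from 250 bases before the RefSeq start to 50 bases from it, on GRCm38.p6, and capitals mark a match to a motif that was searched for. In Ccr6 they mark tttcca, the reverse complement of tggaaa (the core that NFAT proteins read), and tgacct, the reverse complement of the half-site aggtca read by the ROR receptors. In Ccr4 they mark tgagtca, an AP-1 site, in Cxcr6 tggaaa, and in Cxcr3 aaccaca, the reverse complement of the RUNX core tgtggtt.
Ccr6, chr17:8235793-8236092, + strand: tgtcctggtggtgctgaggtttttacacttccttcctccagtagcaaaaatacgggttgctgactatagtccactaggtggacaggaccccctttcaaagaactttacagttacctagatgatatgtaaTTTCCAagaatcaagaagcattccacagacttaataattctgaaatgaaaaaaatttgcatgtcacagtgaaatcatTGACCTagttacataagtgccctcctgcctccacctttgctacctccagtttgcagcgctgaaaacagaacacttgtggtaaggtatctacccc
Ccr4, chr9:114496495-114496794, - strand: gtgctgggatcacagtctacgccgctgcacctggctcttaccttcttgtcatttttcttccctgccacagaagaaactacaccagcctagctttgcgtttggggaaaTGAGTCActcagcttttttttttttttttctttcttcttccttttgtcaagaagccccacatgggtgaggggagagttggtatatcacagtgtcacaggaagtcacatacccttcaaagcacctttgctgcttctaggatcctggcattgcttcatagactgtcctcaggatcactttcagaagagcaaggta
Cxcr6, chr9:123806227-123806526, + strand: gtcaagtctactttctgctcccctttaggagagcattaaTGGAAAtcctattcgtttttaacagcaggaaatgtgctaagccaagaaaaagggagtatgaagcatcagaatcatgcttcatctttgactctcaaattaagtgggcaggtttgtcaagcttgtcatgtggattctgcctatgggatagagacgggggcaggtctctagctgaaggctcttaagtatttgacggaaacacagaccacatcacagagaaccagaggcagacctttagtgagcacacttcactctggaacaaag
Cxcr3, chrX:101734098-101734397, - strand: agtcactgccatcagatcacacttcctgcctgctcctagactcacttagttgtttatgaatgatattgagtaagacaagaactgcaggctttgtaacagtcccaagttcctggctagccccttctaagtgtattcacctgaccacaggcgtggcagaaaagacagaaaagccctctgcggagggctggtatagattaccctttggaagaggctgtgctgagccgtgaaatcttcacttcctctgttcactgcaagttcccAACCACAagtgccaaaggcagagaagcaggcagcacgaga

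RefSeq gave 8 such windows for 7 of the 9 genes, with 2 for Ccr6 and none matched for Ccr7 and Cxcr5. Among 32851 windows of the same length, both strands searched, aggtca was found in 16.3% and in 1 of the 8 receptor windows, at position -44 from the first Ccr6 start. The AP-1 letters TGANTCA were found in 7.81% of all windows and in that of Ccr4, at position -143 from the start. The core tggaaa was found in 21.4% of all windows and in 4 of the 8, those of Ccr2, Cxcr6 and both of Ccr6. The RUNX core was in 5.27% of all windows and in that of Cxcr3. The T-box letters ggtgtga (3.98% of all windows) and the KLF letters ccacaccc (3.56%) were in none of the 8. These matches describe letters only, and the arrays measured no binding.

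A level is the log2 intensity of a probe minus the 75th percentile of its array. Differences between groups are log2 fold changes with the SE that limma gave (3 arrays in each group), and adjusted p-values were formed over 19072 genes by Benjamini-Hochberg. A gene is called at an adjusted p under 0.05. Levels of different genes come from different probes and are not set against each other. Both comparisons with naive cells share the same 3 naive arrays. By their barcodes, slide 1 held all naive arrays and Th1 replicate 1, slide 2 the other Th1 arrays and Th17 replicates 1 and 2, and slide 3 the last Th17 array. Naive and Th17 cells thus never shared a slide. Fewer cells with a transcript and less of it per cell cannot be told apart in sorted pools.

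Against naive cells, 7 receptors rose and 1 fell in Th1 cells, and 7 rose and 1 fell in Th17 cells. So many genes were called in these comparisons (53.9% and 54.2% of all tested) that a call alone says little. The 9 receptors were chosen with earlier results of these data known, so their sizes beside the background are a description and no test. The 7 receptors that rose in Th1 cells were all called at least 2-fold higher, as were 11.6% of genes. The same held for 7 receptors in Th17 cells, against 11.9% of genes. The median change of the 9 receptors was 2.14 in Th1 and 5.09 in Th17 cells, and that of all genes was -0.09 in both. Split by direction, 23.5% of genes were higher and 30.4% lower in Th1 cells, 24.4% and 29.7% in Th17 cells, and 9.1% and 10.4% were at least 2-fold lower, as was Ccr7 in both. Between Th17 and Th1 cells 5 receptors were higher in Th17 cells, 3 were lower and 1 was not called, in a comparison that called 15.8% of all genes (8.28% higher and 7.53% lower). All 8 differed at least 2-fold, where 3.08% of genes were called at least 2-fold higher and 3.32% at least 2-fold lower. Arrays of the groups compared did not overlap for 8 receptors in each comparison, against 65.4% of genes in Th1 against naive, 63.3% in Th17 against naive and 35.4% in Th17 against Th1 cells. When arrays were scaled on probes detected everywhere, the all-gene median in Th1 against naive cells became 0.05, which turned the split of calls to 28.5% higher and 23.3% lower, while 7 receptors rose and 1 fell as before. With normexp background correction 3 receptors, Ccr4, Ccr6 and Cxcr6, were called between Th17 and Th1 cells, where 0.918% of all genes were, and 7 once Th1 replicate 2 was left out, where 8.62% were.

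**Figure D1:**
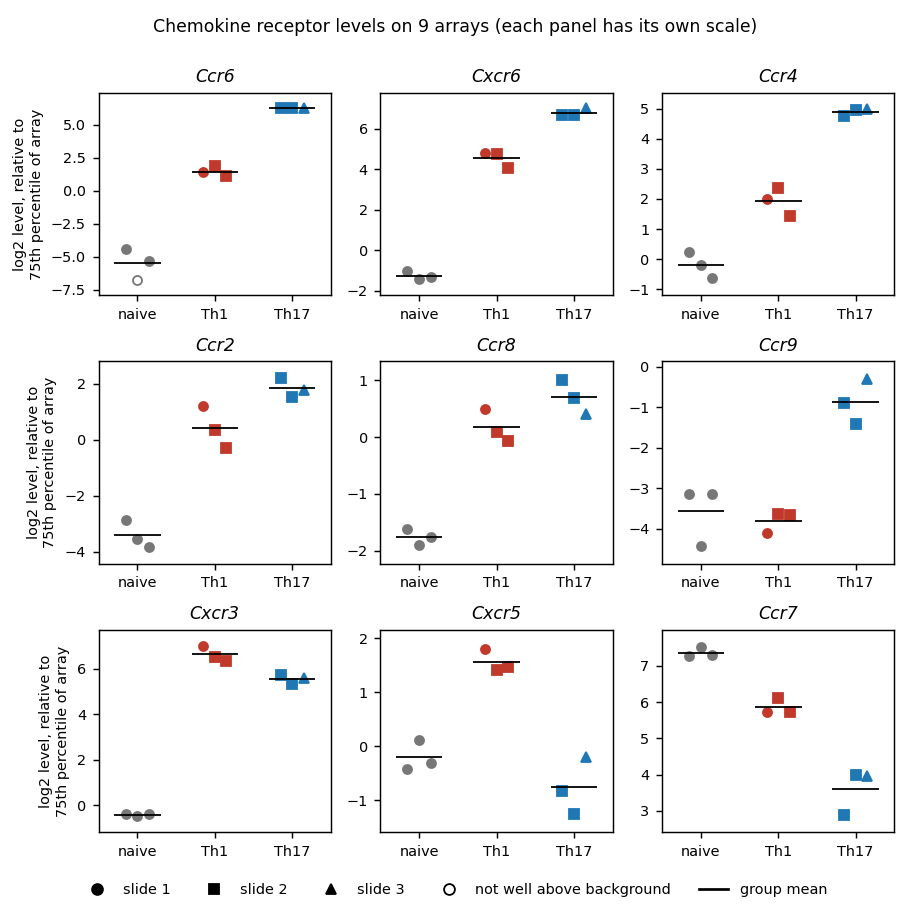
Levels of the 9 receptor genes on each array, in log2 units above or below the 75th percentile of the array, with points for arrays, shapes for slides and lines for group means. Ccr6, Cxcr6, Ccr4 and Ccr2 climb from naive over Th1 to Th17 arrays without overlap, Ccr7 falls in the same order, and Cxcr5 is highest on the Th1 arrays (1.41 to 1.81).

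**Figure D2:**
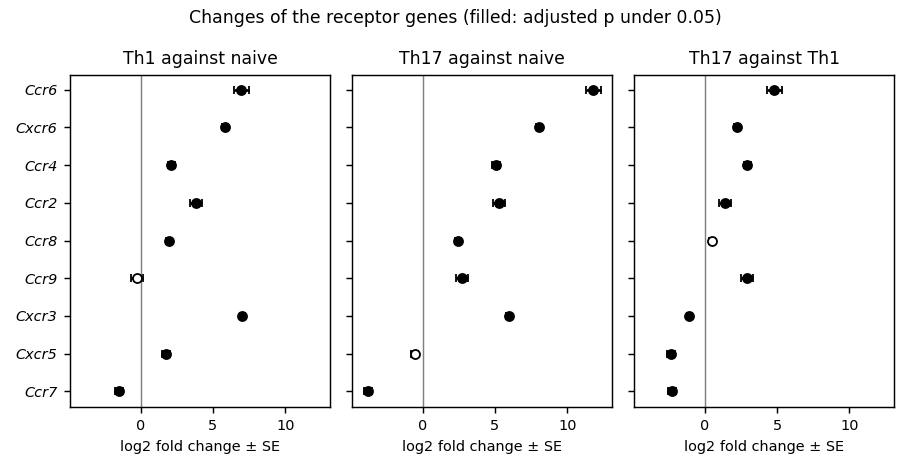
Log2 fold changes of the 9 receptor genes in the 3 comparisons, with bars for the standard error of limma and open points where the adjusted p was 0.05 or above. The points range from -3.76 for Ccr7 to 11.77 for Ccr6, both in Th17 against naive cells.

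Ccr7, whose protein answers CCL19 and CCL21 in lymph nodes, was the only one of the 9 receptors that fell in both comparisons with naive cells. Its level was 7.28, 7.52 and 7.29 on the naive arrays, 5.72, 6.13 and 5.72 on the Th1 arrays and 2.88, 3.99 and 3.96 on the Th17 arrays. The 3 groups did not overlap, and the order naive, Th1, Th17 held on every array. Ccr7 fell by 1.51 ± 0.29 in Th1 cells (adjusted p = 0.00254) and by 3.76 ± 0.29 in Th17 cells (adjusted p = 1.89e-05), and it was 2.25 lower in Th17 than in Th1 cells, a change of -2.25 ± 0.29 (adjusted p = 0.00139). Even on the Th17 array with the least Ccr7 the level lay above the 75th percentile of the array, which is 0 on this scale.

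Cxcr5, whose protein follows CXCL13 into B cell follicles, was higher in Th1 cells than in both other groups, as was Cxcr3, and was the only one of the 9 with a higher mean in naive than in Th17 cells beside Ccr7. The naive arrays stood at -0.42, 0.12 and -0.30, the Th1 arrays at 1.81, 1.41 and 1.47 and the Th17 arrays at -0.82, -1.25 and -0.21. Th1 arrays overlapped with neither other group, while Th17 replicate 3 lay among the naive arrays. The rise in Th1 cells was 1.77 ± 0.27 (adjusted p = 0.000754), and Th17 cells were at -2.33 ± 0.27 against Th1 cells (adjusted p = 0.000794). Th17 against naive cells gave -0.56 ± 0.27 (adjusted p = 0.108). Without Th17 replicate 3 that value was -0.84 (adjusted p = 0.0144), so this array decides the call. Of 9 listed follicular helper markers, 8 rose in Th1 cells, and 6 rose and 1 fell in Th17 cells. Of all genes 23.5% were higher in Th1 cells, and 24.4% were higher and 29.7% lower in Th17 cells. Among the 8 was Ascl2, above background on no naive array. It passed the filter only through the effector arrays, so its rise adds nothing to that count. Pdcd1, the inhibitory receptor PD-1, rose by 4.31 and 4.05, Icos, a costimulator, by 4.15 and 4.32, and Cd200 by 3.89 and 3.91. Sh2d1a, which encodes the adaptor SAP, was at -1.38 ± 0.20 in Th17 against Th1 cells (adjusted p = 0.00272) and Pou2af1 at 1.05 ± 0.18 (adjusted p = 0.00636).

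Cxcr3, the receptor for CXCL9, CXCL10 and CXCL11, was far above naive cells in both effector populations. Naive arrays lay at -0.38, -0.48 and -0.38, Th1 arrays at 6.99, 6.51 and 6.35 and Th17 arrays at 5.71, 5.34 and 5.59. The groups did not overlap, and every effector array stood far above every naive array. Beside the rise of 7.03 ± 0.17 in Th1 cells (adjusted p = 1.17e-07), the rise in Th17 cells was 5.96 ± 0.17 (adjusted p = 2.61e-07). The difference between them was small beside both, -1.07 ± 0.17 for Th17 against Th1 cells (adjusted p = 0.0046), or 0.48 times the Th1 level on the linear scale. Within slide 2, with 2 arrays per group, it was -0.91 (adjusted p = 0.0606).

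Cxcr6, the receptor for the membrane-bound chemokine CXCL16, rose in both and further in Th17 cells. It was at -1.04, -1.43 and -1.34 on the naive arrays, 4.80, 4.74 and 4.06 on the Th1 arrays and 6.68, 6.68 and 7.0 on the Th17 arrays. No groups overlapped. The changes were 5.80 ± 0.21 in Th1 (adjusted p = 4.99e-07) and 8.06 ± 0.21 in Th17 cells (adjusted p = 2.12e-07), the 32nd highest of all genes in the latter comparison, and Th17 cells were 2.25 ± 0.21 above Th1 cells (adjusted p = 0.000289). A second probe of Cxcr6, dimmer on every array, gave 5.79, 8.03 and 2.24 for the same 3 comparisons.

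Ccr2, which brings cells to sites rich in CCL2, rose by 3.84 ± 0.40 in Th1 cells (adjusted p = 0.000102) and by 5.26 ± 0.40 in Th17 cells (adjusted p = 1.77e-05). Its arrays spread more than those of most genes. Naive arrays gave -2.87, -3.54 and -3.85, Th1 arrays 1.21, 0.35 and -0.29 and Th17 arrays 2.22, 1.53 and 1.78. Th17 arrays all lay above the Th1 arrays, the lowest of them not far above Th1 replicate 1. The difference between Th17 and Th1 cells was 1.42 ± 0.40 (adjusted p = 0.0453), just inside the threshold. It was lost without Th1 replicate 2 (adjusted p = 0.12) or 3 (0.115), without Th17 replicate 1 (0.122), 2 (0.0649) or 3 (0.0909) and without naive replicate 2 (0.0677) or 3 (0.0549), which change only the estimate of the spread. In all, 13 of 25 alternatives lost the call, with adjusted p up to 0.264. The others were the fit with no filter on dim probes (0.0943), the fit on the arrays of these groups alone (0.0694), the fit within slide 2 (0.0537) and the 3 normexp fits (0.0524 to 0.264). The value itself stayed between 1.06 and 1.85 over the 25.

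Ccr6, the only receptor of CCL20 and a guide to mucosal tissue, showed the largest change of the 9 genes in each comparison except Th1 against naive cells, where Cxcr3 at 7.03 lay beside it. On the naive arrays it was at -4.39, -6.77 and -5.32, replicate 2 not being well above background, on the Th1 arrays at 1.43, 1.86 and 1.10, and on the Th17 arrays at 6.25, 6.29 and 6.30. Th17 arrays were nearly equal, whereas the naive arrays spread widely near background, and no groups overlapped. The rise was 6.95 ± 0.51 in Th1 (adjusted p = 1.66e-05) and 11.77 ± 0.51 in Th17 cells (adjusted p = 1.33e-06), the 4th highest among all genes. Th17 cells stood 4.82 ± 0.51 above Th1 cells (adjusted p = 0.000536), which is 28.3-fold. The dim naive level makes the folds against naive cells depend on background: with normexp correction on 8 arrays, leaving out Th1 replicate 2, the rise was 4.05 in Th1 and 8.95 in Th17 cells, while Th17 against Th1 gave 4.90.

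Ccr9, the receptor of CCL25 in thymus and small intestine, was the only one of the 9 that rose in Th17 cells alone among the comparisons with naive cells. It was at -3.14, -4.44 and -3.15 on naive arrays, at -4.11, -3.64 and -3.66 on Th1 arrays and at -0.89, -1.42 and -0.30 on Th17 arrays. Naive and Th1 arrays overlapped, and every Th17 array lay above both. Th1 against naive cells gave -0.23 ± 0.40 (adjusted p = 0.655). The rise in Th17 cells was 2.70 ± 0.40 against naive (adjusted p = 0.000622) and 2.93 ± 0.40 against Th1 cells (adjusted p = 0.00188). With slide as a block the first of these was 1.96 (adjusted p = 0.0857) and the second 2.50 (adjusted p = 0.0208). With normexp on 8 arrays the rise against naive cells was 1.74 (adjusted p = 0.000118). With normexp on all arrays both calls were lost, with adjusted p up to 0.166 against naive and 0.599 against Th1 cells. Th17 replicate 3, alone on its slide, was the highest of the 3.

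Ccr4, which binds CCL17 and CCL22, stepped up from naive to Th1 to Th17 cells. Its levels were 0.24, -0.20 and -0.64 in naive, 1.98, 2.38 and 1.45 in Th1 and 4.75, 4.94 and 4.98 in Th17 cells, and the groups did not overlap. Th1 cells were 2.14 ± 0.27 above naive cells (adjusted p = 0.000319), and Th17 cells were 5.09 ± 0.27 above naive (adjusted p = 3.18e-06) and 2.95 ± 0.27 above Th1 cells (adjusted p = 0.000248). On the linear scale the last is 7.75-fold.

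Ccr8, the receptor of CCL1, rose by 1.94 ± 0.19 in Th1 (adjusted p = 7.92e-05) and by 2.46 ± 0.19 in Th17 cells (adjusted p = 2.03e-05). Arrays of naive cells were at -1.63, -1.90 and -1.76, those of Th1 cells at 0.49, 0.10 and -0.06 and those of Th17 cells at 1.0, 0.69 and 0.40. Th1 and Th17 arrays overlapped, since Th1 replicate 1 lay above Th17 replicate 3. Th17 against Th1 gave 0.52 ± 0.19 (adjusted p = 0.105), and on a second, dimmer probe 0.12 ± 0.22 (adjusted p = 0.742 in a separate fit, over 23216 probes), while that probe rose by 2.02 in Th1 and 2.15 in Th17 cells. With slide as a block the first probe gave 0.83 (adjusted p = 0.022).

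**Figure D3:**
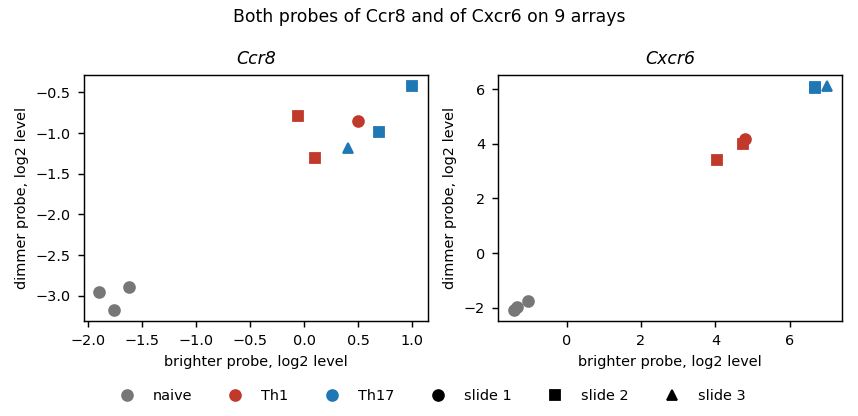
Levels of the dimmer against the brighter probe of Ccr8 and of Cxcr6 on each array (log2, relative to the 75th percentile), with colours for groups and shapes for slides. The Cxcr6 probes separate all 3 groups, whereas Th1 and Th17 arrays mix on both Ccr8 probes.

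Regulatory T cells also carry Ccr4 and Ccr8, and most, but not all, of their listed markers were higher in the effector groups than in naive cells. Of 9 listed markers, 8 were on the array and tested, and 6 rose in Th1 and 6 in Th17 cells, where 2 fell. Beside these counts, 23.5% of all genes were higher in Th1 cells, and 24.4% were higher and 29.7% lower in Th17 cells. Foxp3, the defining factor of that lineage, was at -2.49, -2.55 and -2.54 in naive, 1.03, 1.92 and 1.37 in Th1 and 0.65, 0.81 and 0.47 in Th17 cells, and changed by -0.80 in Th17 against Th1 cells (adjusted p = 0.035). Ikzf2, which encodes Helios, was at -5.36 to -4.49 on naive, 3.57 to 4.10 on Th1 and 1.31 to 1.97 on Th17 arrays. Ctla4 was at -3.43 to -2.58 on naive, 3.90 to 5.19 on Th1 and 3.33 to 4.17 on Th17 arrays. Both were lowest on the naive arrays, as were Ccr4 and Ccr8. Like Foxp3, Ikzf2 was lower in Th17 than in Th1 cells (-2.30, adjusted p = 0.00089), where Ccr4 was higher. Tnfrsf18, the receptor GITR, was at -1.15 in the same comparison, and of the list only Il2ra rose (0.82). The summed marker level, on a log2 scale, was 7.14 to 7.25 on naive, 8.77 to 9.19 on Th1 and 8.85 to 9.0 on Th17 arrays. Its largest part on every array was Tnfrsf4, and Foxp3 adds little to it. Tnfrsf4 was at 5.87, 5.86 and 5.76 on naive, 8.67, 8.51 and 8.31 on Th1 and 8.38, 8.29 and 8.38 on Th17 arrays. Gpr83 was above background on all naive arrays, on 1 Th1 array and on no Th17 array. The part of regulatory T cells in the receptor levels was not tested.

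Markers of other cells were checked in the same way. The T cell markers Cd3d, Cd3e, Cd3g, Cd4, Cd28 and Lck were above background on all arrays. Of 10 B cell markers, which matter for Ccr6 and Cxcr5, 4 were above background on no array, the defining genes Ms4a1, Pax5 and Cd79b among them. Others were detected: Cd79a, the partner chain of Cd79b, was above background on 6 of 9 arrays, spread over all groups, Cr2 on 8, Fcer2a and Cd22 on all 9, and Ebf1 and Blnk on 1 each. Cd79a, Cr2 and Fcer2a were not called in any comparison. The summed level of the B cell list was -0.80 to -0.45 in naive, 0.10 to 0.47 in Th1 and -0.11 to 0.18 in Th17 cells, and Cd22 rose by 1.37 ± 0.20 in Th1 (adjusted p = 0.000573) and by 1.18 ± 0.20 in Th17 cells (adjusted p = 0.00118). Of 6 NK cell markers, Ncr1, Klrb1c and Klre1 were above background on no array, and the sum ranged from -0.62 to 0.02 in naive, -1.92 to -0.91 in Th1 and -3.38 to -3.20 in Th17 cells. Klra8 was above background on naive replicates 2 and 3 and on no Th1 or Th17 array. Klrk1 was above background on the 3 Th17 arrays alone, through which it passed the filter, and was at least 1.88-fold higher there than in naive cells. Eomes, which T cells also express, was above background on all naive and Th1 arrays, with means of -0.48 and -1.67, but on only 1 Th17 array, at -4.90. Cd8a was above background on no array, and Cd8b1 was at -3.31 in Th1 and -3.41 in Th17 against naive cells. Of 13 myeloid and dendritic markers on the array, Spi1, Itgax and Flt3 were above background on no Th1 or Th17 array and on 1 naive array each. Zbtb46, detected on every array, was at -0.42 in Th1 (adjusted p = 0.0754) and at -0.64 in Th17 against naive cells (adjusted p = 0.0152). Adgre1, above background on all naive and Th17 arrays and on 2 Th1 arrays, was not called in any comparison. Some other markers appeared in the effector groups alone. Lyz2 was above background on 2 Th17 arrays, S100a8 on 1 Th1 and 1 Th17 array and S100a9 on 2 Th1 and 2 Th17 arrays, and all 3 on no naive array. Itgam, detected on every array, rose by 1.07 in Th1 (adjusted p = 0.00105) and by 0.80 in Th17 cells (adjusted p = 0.0046), while Csf1r was at -0.72 and -0.77. Cebpa was at least 4.08-fold higher in Th1 and at least 3.29-fold higher in Th17 cells. Cd14 rose by 3.06 in Th17 cells. The myeloid sum was 7.48 to 7.54 in naive, 7.66 to 7.87 in Th1 and 7.68 to 7.88 in Th17 cells and was carried by a single Siglech probe at a mean of 7.37 to 7.63. Of 6 gamma-delta T cell markers 2 were on the array, Blk on no array above background and Sox13 lower by 0.58 in Th1 and by 0.53 in Th17 cells. For Cd14, Cebpa, Itgam, Lyz2, S100a8, S100a9, Klrk1 and Cd22, the part of their cells in the receptor changes was not tested.

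Beyond the 9 genes, 17 further chemokine and chemoattractant receptors were listed, and 8 passed the filter. Of these, 4 rose in Th1 cells, 5 rose in Th17 cells and 1, Xcr1, was lower in Th17 than in Th1 cells. Ccr3, Gpr15, Xcr1 and Ccr1l1 passed the filter only through the groups in which they were high, so these counts support nothing. Cxcr4, which answers CXCL12, rose by 0.64 ± 0.19 in Th17 cells (adjusted p = 0.0187). Ackr1 and Ccrl2 were not called in any comparison, with Ccrl2 at 1.26 ± 0.56 in Th17 against Th1 cells (adjusted p = 0.172).

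Ccr3, Gpr15, Xcr1 and Ccr1l1 were not well above background in naive cells and can be given only as bounds. A fold of this kind divides by the dimmest signal that any detected probe had on each array, or by the dim probe's own where that is higher. Ccr3, the eotaxin receptor, was at least 6.83-fold higher in Th1 and at least 7.5-fold higher in Th17 than in naive cells. Gpr15, a gut-homing receptor, was at least 2.91-fold and at least 3.79-fold higher. Xcr1, the receptor of XCL1, was above background on the 3 Th1 arrays alone, at least 2.54-fold higher than in naive cells and at least 3.05-fold higher than in Th17 cells. It passed the filter through those arrays alone, so no test is given. Ccr1l1 was at least 2.89-fold higher in Th17 than in naive cells. These dim receptors depend on the background correction: with normexp on 8 arrays 2 of the 8 rose in Th1 and 5 in Th17 cells, and 1 was higher and 0 lower in Th17 against Th1 cells, beside 14.2%, 20.2%, 5.12% and 3.5% of all genes in that fit. With slide as a block 3 of the 8 rose in Th17 cells, beside 14.4% of all genes.

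In the RefSeq annotation 7 of these receptor genes, from both lists, lie among 8 neighbouring protein-coding genes of chromosome 9, in the order Ccr9, Fyco1, Cxcr6, Xcr1, Ccr1, Ccr1l1, Ccr3 and Ccr2. The receptors of this run that were detected on all arrays did not move as one. Against naive cells Ccr9 rose in Th17 cells alone, while Cxcr6 and Ccr2 rose in both and further in Th17 cells. Xcr1, Ccr3 and Ccr1l1 passed the filter only through the groups in which they were high, so only their detection is given. Xcr1 was above background on the Th1 arrays alone, Ccr3 on all Th1 and Th17 arrays, and Ccr1l1 on all Th17 arrays and 1 Th1 array. Ccr1 was above background on 2 Th17 arrays and no other, and was not tested. Fyco1, an adaptor of vesicle transport whose gene overlaps Cxcr6 and which was added for its position, rose by 0.95 ± 0.35 in Th1 (adjusted p = 0.0493) and by 2.19 ± 0.35 in Th17 cells (adjusted p = 0.00105). Its Th17 arrays were at 0.24, 0.11 and -1.29, with replicate 3 low, whereas Cxcr6 was highest on that array. Cxcr5 overlaps Bcl9l, added for the same reason, which changed otherwise: it fell by 0.59 ± 0.21 in Th1 cells (adjusted p = 0.0424) and by 0.88 ± 0.21 in Th17 cells (adjusted p = 0.00726).

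**Figure D4:**
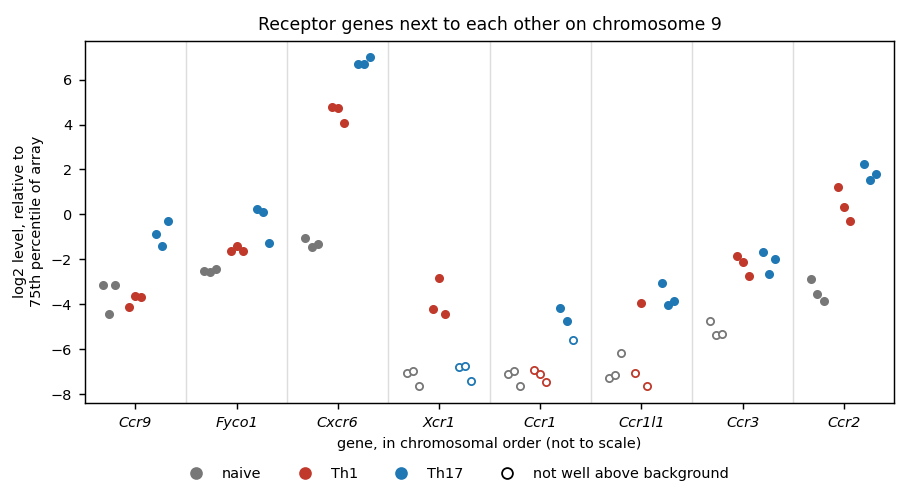
Levels of 8 neighbouring genes of chromosome 9 in their order along it (log2 units from the 75th percentile of the array), 1 point per array, with open points where no probe was well above background. Levels can be compared within a gene only. Xcr1 is above background on Th1 arrays alone and Ccr1 on 2 Th17 arrays.

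Of the chemokines that the 9 receptors bind, some were above background on all arrays and others on none. Of 16 listed, 14 were on the array and 6 passed the filter, and Ccl2, Ccl7, Ccl8, Ccl20, Ccl22 and Cxcl13 were above background on no array. Ccl12 was above background on naive replicate 3 alone and Ccl17 on Th1 replicates 2 and 3 alone. Ccl1, the ligand of CCR8, rose by 9.22 ± 0.49 in Th1 (adjusted p = 3.06e-06) and 8.88 ± 0.49 in Th17 cells (adjusted p = 3.65e-06), from -1.93, -2.39 and -4.00 on naive arrays to 6.39, 6.86 and 6.08 on Th1 and 5.84, 6.51 and 5.96 on Th17 arrays. Both the chemokine and its receptor were thus lowest on the naive arrays. The CXCR3 ligand Cxcl10 ran opposite to Cxcr3 against naive cells. It was at 2.10, 2.57 and 2.33 on naive, 0.09, 0.02 and -0.56 on Th1 and 0.99, 0.87 and 1.14 on Th17 arrays, and it fell by 2.48 ± 0.20 in Th1 (adjusted p = 2.4e-05) and 1.33 ± 0.20 in Th17 cells (adjusted p = 0.000622). Cxcl9, another CXCR3 ligand, instead rose in Th17 cells, as Cxcr3 did. It was at -2.56, -2.17 and -2.72 on naive, -1.77, -2.29 and -2.72 on Th1 and -0.44, -0.70 and -1.02 on Th17 arrays. Th17 against naive cells gave 1.76 ± 0.26 (adjusted p = 0.000668) and Th1 against naive cells 0.22 ± 0.26 (adjusted p = 0.511). Both ligands were higher in Th17 than in Th1 cells, Cxcl9 by 1.54 ± 0.26 and Cxcl10 by 1.15 ± 0.20, whereas Cxcr3 was lower. Cxcl16, the ligand of CXCR6, fell by 0.93 ± 0.12 in Th1 (adjusted p = 0.000327) and rose by 0.40 ± 0.12 in Th17 cells (adjusted p = 0.0204). Ccl19 and Ccl25 were not called.

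As a list, signal carriers below the receptors were called about as often as all genes between Th17 and either other group. Of 30 listed genes 29 were tested, with 10 higher and 10 lower in Th1 cells, 9 higher and 7 lower in Th17 cells, and 1 higher and 3 lower in Th17 against Th1 cells. Of all genes 53.9%, 54.2% and 15.8% were called in these comparisons. The list's median changes were 0.14, 0.02 and -0.13. The G protein subunit gene Gng2 rose by 5.29 and 4.81 in Th1 and Th17 cells, and Pik3cg, the catalytic subunit of the lipid kinase that G proteins activate, by 2.56 and 2.30. Its regulatory partner Pik3r5 was at -1.72 and -2.70. Gnaq rose by 3.90 in Th1 and by 1.94 in Th17 cells, and was at -1.96 ± 0.15 in Th17 against Th1 cells (adjusted p = 9.56e-05). Rasgrp2, which activates RAP1 and so integrins, was at -3.48 and -3.36. Rap1b was 0.82 higher in Th17 than in Th1 cells. RGS proteins, which end G protein signals, split as well: of 7 tested out of 8, 3 rose and 3 fell in each comparison with naive cells. Rgs16 rose by 5.49 and 4.28 and Rgs1 by 2.54 and 2.65, while Rgs10 was at -2.64 and -1.76 and Rgs14 at -1.43 and -1.12.

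The receptor genes spread more between replicates than most genes. The within-group SD pooled over the 3 groups was 0.73 for Ccr6, 0.56 for Ccr2 and for Ccr9, 0.40 for Ccr7, 0.38 for Ccr4, 0.37 for Cxcr5, 0.29 for Cxcr6, 0.25 for Ccr8 and 0.22 for Cxcr3, and the median gene had 0.19. For Ccr6 this spread came from the naive arrays (SD 1.20), with 0.03 on the Th17 arrays. Where slide could be held apart, the directions stayed. Within slide 1, Th1 replicate 1 against the naive arrays gave 7.40 for Cxcr3, 6.92 for Ccr6, 6.07 for Cxcr6, 4.63 for Ccr2, 2.26 for Ccr8, 2.18 for Ccr4, 2.01 for Cxcr5, -0.54 for Ccr9 and -1.65 for Ccr7. In slide 2, Th17 against Th1 gave 4.80 for Ccr6, 2.93 for Ccr4, 2.50 for Ccr9, 2.28 for Cxcr6, 1.85 for Ccr2, 0.83 for Ccr8, -0.91 for Cxcr3, -2.48 for Cxcr5 and -2.49 for Ccr7. For Th17 against naive cells no slide holds both, and the part of the slide there rests on Th1 arrays that link the slides.

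Genes whose levels were most alike over the 9 arrays were looked up among 13072 genes with a symbol, as a description, since the 3 group means alone set most of such a correlation. For Cxcr3 these were Socs2 (Pearson r = 0.999), Stat4 (0.999) and Lancl3 (0.998). For Ccr6 they were Ufl1, Dph6 and Wwp2 (0.995 to 0.996), for Cxcr6 Micu2, Asns and Gabarapl1 (0.997 to 0.998), for Ccr4 Itpripl2, Snrnp35 and Hlf (0.995 to 0.996) and for Ccr7 Tacc2, Fech and Lhpp (0.988 to 0.992). Ccr2 ran with Lockd, Tln1 and Cd99 (0.994 to 0.995), and Ccr8 with Sgcb, Lockd and Xirp1 (0.996 to 0.997), of which Xirp1 lies next but one to Ccr8 in the annotation. Ccr9 had Cinp, Ccdc12 and H3c13 (0.979 to 0.982) and Cxcr5 had Dlg3, Mcoln3 and Krt13 (0.971 to 0.987).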

How the data were processed

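RNA of 9 sorted samples (0.5 ug each, Cy3) was measured on Agilent arrays of design 026655. The array files deposited by the authors hold an intensity per spot, background-subtracted, with no normalization between arrays. Feature Extraction was version 10.7.3.1 per the file headers and 10.5 per the submitters' processing notes. The log2 values deposited by the authors match the scale used here up to an unstated constant per probe. The headers name a build older than that of the reference, which therefore served for names and gene order, and symbols came from RefSeq accessions (27234 of 39429 probes).

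Controls and outlier spots were left out, log2 processed intensity was shifted to each array's 75th percentile, and probes well above background on at least 3 of 9 arrays were kept, the brightest standing for a gene (19072 genes). Between 53.4% and 58.3% of probes were above background per array, and the number of arrays limits the precision. A joint fit of all 3 groups was made with limma 3.58.1 (R 4.3.3, eBayes, two-sided), tested on simulated data. A gene list was described by its counts and median.

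The receptors and lists were chosen with earlier results of these data known. Named were all 9 receptors, the measured further receptors, up to 4 genes of each other list by smallest p and the 3 genes most alike to each receptor. Fyco1 and Bcl9l were added for their position. Some genes that the rule names are left out of the text. Alternatives covered background correction, scaling, filter, probe choice, slide, replicate block and single arrays left out.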

Additional observations from a re-analysis of the deposited data

How the results depend on the processing

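Of the values recomputed under other settings, 634 kept their direction and side of the threshold, 27 lost the call, 3 gained it and 2 reversed. Called receptors stayed at 8 in Th1 against naive, 8 to 9 in Th17 against naive and 7 to 8 in Th17 against Th1 cells when any single replicate was left out, where 45.4% to 57.6%, 46.3% to 54.2% and 10.1% to 14.6% of all genes were called. In the last comparison 3 were called with normexp and 3 with normexp by maximum likelihood, against 8. Normexp, run on the median spot signal, compressed Th1 replicate 2: its range from percentile 10 to 90 was 2.11 log2 units, against 6.21 to 6.94 on the other arrays. Without that array, an alternative added like the maximum likelihood fit after seeing the data, normexp called 8, 8 and 7 (37.1%, 43.7% and 8.62% of all genes). The calls lost with normexp on all arrays were Ccr2, Ccr7, Ccr9, Cxcr3 and Cxcr5 between Th17 and Th1 cells, Cxcr5 in Th1 and Ccr9 in Th17 against naive cells. Both reversals were Ccr9 in Th1 against naive cells, 0.58 under each of those normexp fits (adjusted p = 0.508 and 0.506), where the value was never called. The labels do not say that replicate numbers pair the samples. Residuals of arrays of different groups had r of -0.01 to 0.18 with the same number and -0.20 to 0.06 otherwise, and 2 of 9 arrays were closest to their own number in both other groups. With the replicate block 8, 8 and 9 receptors were called (53.3%, 53.9% and 15.9% of all genes), the gain being Ccr8 in Th17 against Th1 cells (0.52, adjusted p = 0.0375). With slide as a block the counts were 8, 7 and 9 (41.4%, 27.5% and 11.2% of all genes), and 6 within slide 2 (7.44%). Within slide 1 there were 8 (34.3%), in a fit of 1 Th1 array against 3 naive arrays that takes its spread from the naive arrays alone and so says little of stability. Over all genes, normexp called 1248 genes in Th1 against naive cells (10289 without it), 1230 in Th17 against naive cells (10333) and 175 between Th17 and Th1 cells (3015), and slide as a block 5242 in Th17 against naive cells. Probes near background limit Ccr6 in naive cells and the dim receptors. Ccr9 and Ccr2 were well above background on all arrays, yet dim in some groups. Processed intensities of Ccr9 were 22.5 to 64.1 on naive and 33.3 to 54.2 on Th1 arrays. Those of Ccr2 were 38.5 to 77.4 on naive arrays, where Ccr6 had 4.47 to 27.0.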

Other observations

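Other homing and retention genes moved in both directions. Of 18 listed, 17 were tested, with 7 higher and 7 lower in Th1 and 7 higher and 8 lower in Th17 than in naive cells, beside 53.9% and 54.2% of all genes called. Cd69, which holds cells in tissue, was at -2.45 in Th1 and -2.05 in Th17 against naive cells, and Icam1, an adhesion molecule, at -2.93 and -3.27. Itgb1, an integrin chain, rose by 2.09 in Th1 cells and was at -0.59 in Th17 against Th1 cells. Fut7, which makes selectin ligands, rose by 5.90 ± 0.27 in Th17 cells (adjusted p = 1.58e-06) and was 4.47 ± 0.27 above Th1 cells (adjusted p = 2.61e-05). Itga4, the integrin chain of gut and inflamed vessel homing, was lower in Th17 than in Th1 cells (-1.70, adjusted p = 0.00187), whereas Ccr9 was higher. S1pr1, the exit receptor, was at -1.26 in that comparison (adjusted p = 0.0313).

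Among 15 transcription factors linked to these receptors, 3 were higher and 4 lower in Th17 against Th1 cells, where 15.8% of all genes were called. Rora, an orphan nuclear receptor, was 1.98 ± 0.19 higher (adjusted p = 0.000291) and Ahr 1.11 ± 0.25 (adjusted p = 0.0184), while Stat3 was at -1.54 (adjusted p = 0.00188). Against naive cells Stat4, a factor downstream of IL-12, rose by 2.97 in Th1 and 2.46 in Th17 cells, and Maf by 4.82 in Th1 cells.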
